A study of Bos taurus with 20 samples.

Results

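The 6 genes CD36, LPL, FABP3, FABP5, SLC27A1 and ACSL1 cover the path by which a muscle cell takes a fatty acid out of the blood, holds it in the cytosol and activates it. Every probe set annotated to exactly 1 of these symbols was taken, which gave 8 probe sets of the 24016 on the array that are not controls, and 6 of the 9155 genes that have a symbol of their own there. FABP5 and SLC27A1 have 2 probe sets each. For these the one with the higher mean intensity over the 20 arrays is called by the gene's name alone, and the other is called the second probe set. All 8 probe sets passed the filter on dim signals. All 6 genes matched a RefSeq gene record by gene ID.

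The samples were total RNA from the longissimus dorsi, the long muscle of the back, of 20 bulls of a Holstein x Charolais F2 cross, labelled with biotin and hybridised to an Affymetrix cattle GeneChip, 1 array for each animal. The study set animals of high intramuscular fat content (IMF) against animals of low IMF, 10 of each. In each IMF group 5 animals carried the letter S in the sample title and the other 5 did not, so IMF content and title series were balanced. The meaning of that letter is not given in the labels, nor is any age, feed, IMF value or pairing of animals. Replicates 1 to 5 of each IMF group are the animals without an S in the title, called the other series here, and replicates 6 to 10 are the S animals. The values are the intensities deposited by the authors, which are linear, and differences are given on the scale of log2(intensity + 1), where 1 unit is a doubling.

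Fatty acids reach muscle inside lipoprotein particles or bound to albumin. Lipoprotein lipase, the product of LPL, splits the triglyceride of lipoproteins at the capillary wall. CD36 and the transport protein FATP1, made from SLC27A1, help the freed fatty acids across the cell membrane. FABP3, the binding protein of heart and skeletal muscle, and FABP5, a binding protein best known from skin and also made by endothelial cells, fat cells and macrophages, carry them through the cytosol. ACSL1 joins them to coenzyme A, after which they can be oxidised in mitochondria or stored as triglyceride.

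The arrays had median intensities between 51.6 and 67.6, with the lowest in high IMF replicate 6 at 51.6 and high IMF replicate 9 at 56.6. Signals of the bacterial control BioB, which is added to the labelled RNA, were 186 to 312 on the S arrays and 348 to 430 on the other arrays, with no overlap. The labelled tissue was borne out by its markers: the 8 skeletal muscle markers on the array, led by MYL1 and CKM, had a mean log2 level of 13.68 ± 0.08 (SD, n = 10) in the S series and 13.67 ± 0.03 (SD, n = 10) in the other series. A high albumin signal, above 2000, was seen in low IMF replicate 3 and in high IMF replicates 6, 8 and 10. In whole muscle, fewer cells of a type and less RNA per cell cannot be told apart.

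LPL showed a wide spread among animals. In the other series, the LPL intensity was 1354, 812, 1038, 898 and 1421 in the low IMF animals and 1297, 997, 600, 1130 and 685 in the high IMF animals. In the S series it was 526, 310, 662, 737 and 687 at low IMF and 669, 585, 664, 248 and 1614 at high IMF. The lowest and the highest of all 20 values were thus both from high IMF bulls of the S series, replicates 9 and 10, and they lay 6.49-fold apart. Replicate 9 is also an array of low median signal, and replicate 10 one of high albumin signal.

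CD36 divided by title series and not by IMF content. In the other series, CD36 read 2314, 1688, 2370, 1462 and 1998 in low IMF animals and 2542, 1737, 2108, 2515 and 1250 in high IMF animals. In the S series it read 880, 833, 801, 738 and 752 at low IMF and 964, 901, 852, 690 and 1164 at high IMF. The highest S animal was below the lowest animal of the other series, while high and low IMF animals overlapped within each series.

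SLC27A1 went the opposite way between series. Its intensity in the other series was 334, 327, 446, 419 and 500 in low IMF animals and 357, 535, 423, 418 and 491 in high IMF animals. In the S series the values were 487, 717, 757, 695 and 534 at low IMF and 470, 568, 675, 551 and 562 at high IMF. All 10 S animals lay above the median of the other series, and 7 lay above its highest animal. The second SLC27A1 probe set ran from 92.2 to 144 in the S series and from 71.8 to 104 in the other series, with 9 of the 10 S animals above the highest other animal.

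FABP3 had the smallest fold range of the 8 probe sets. In the other series it read 5337, 5179, 5348, 6770 and 6666 in low IMF animals and 5599, 4697, 4971, 5987 and 5707 in high IMF animals. In the S series it read 5127, 5863, 7485, 7646 and 7676 at low IMF and 6966, 7308, 6692, 6510 and 7327 at high IMF. The whole range over 20 animals was 1.63-fold, and 6 of the 10 S animals were above every animal of the other series.

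FABP5 gave a different picture from each of its probe sets. With the brighter one, the other series read 1291, 895, 1232, 1780 and 877 at low IMF and 941, 727, 1357, 1298 and 1144 at high IMF. The S series read 2017, 1228, 1059, 1084 and 1077 at low IMF and 1550, 966, 1670, 887 and 1682 at high IMF. The series overlapped broadly, with 5 S animals on each side of the median of the other series.

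With the second FABP5 probe set, the other series read 641, 323, 710, 730 and 522 at low IMF and 458, 391, 695, 668 and 261 at high IMF. In the S series it read 208, 205, 188, 199 and 176 at low IMF and 211, 158, 269, 98.05 and 199 at high IMF. Here 9 of the 10 S animals were below the lowest animal of the other series. The tenth, high IMF replicate 8, read 269 against 261 in high IMF replicate 5.

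ACSL1 had a range of 1.80-fold over the 20 animals. In the other series it read 4291, 4499, 3950, 4610 and 4155 in low IMF animals and 4815, 4128, 3615, 6147 and 4923 in high IMF animals. In the S series it read 3407, 3806, 4297, 3832 and 3917 at low IMF and 3962, 3884, 3799, 4561 and 4055 at high IMF. High IMF replicate 4 of the other series was the highest animal. The groups overlapped, but 9 of the 10 S animals lay below the median of the other series.

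**Figure D1:**
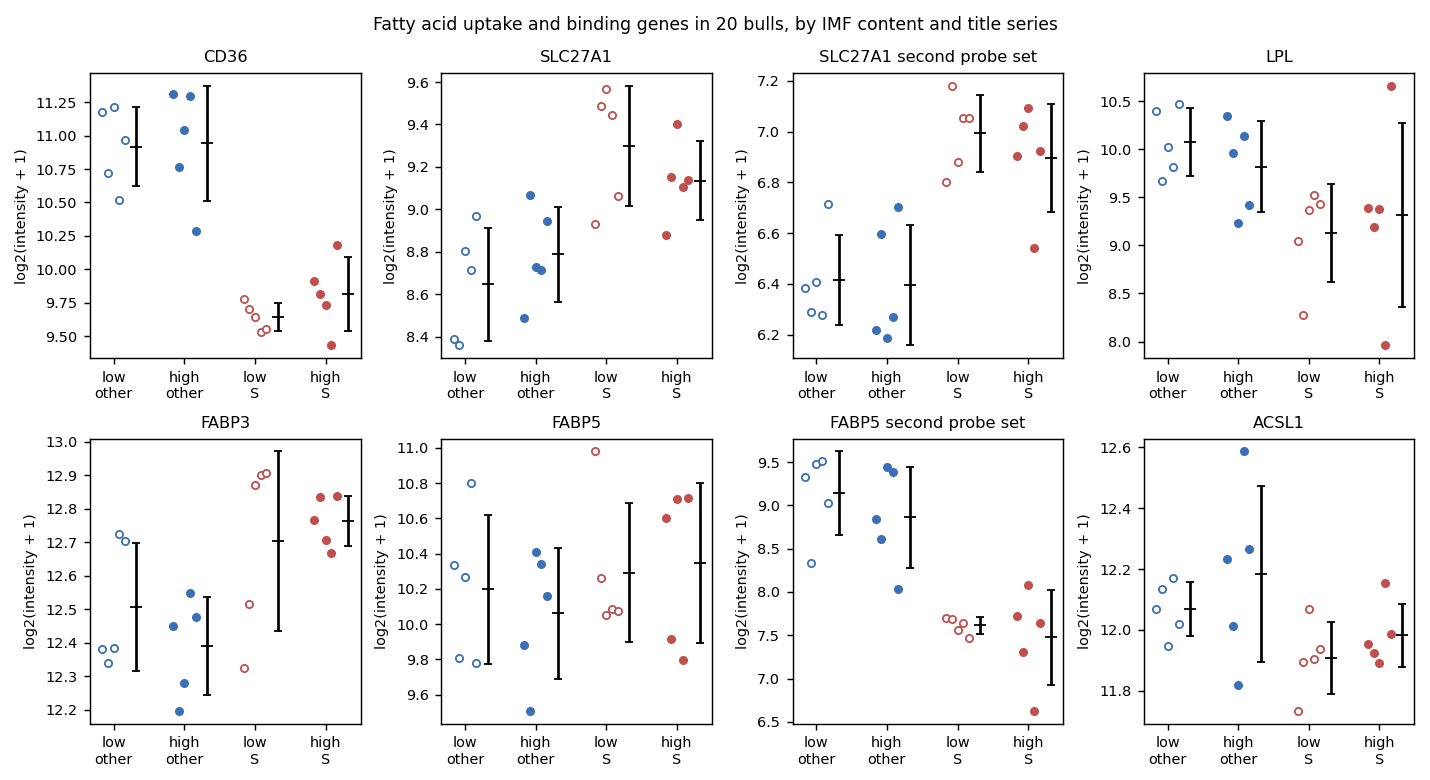
Intensity of each of the 8 probe sets as log2(intensity + 1) on the vertical axis, which does not start at 0, for the 20 bulls grouped by IMF content and title series (open points low IMF, filled points high IMF, blue other series, red S series); black bars are the mean ± SD of 5 animals. CD36 and the second FABP5 probe set are lower and SLC27A1 higher in S animals, while high and low IMF animals overlap in every panel.

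The comparison the study was designed for, high against low IMF, gave no difference past the threshold for any of the 6 genes. With limma and Benjamini-Hochberg adjustment over the 14409 probe sets tested, 0 of the 6 genes and 0 of all probe sets (0%) passed an adjusted p of 0.05. At an unadjusted p of 0.05 the counts were 0 of 6 genes and 239 of all probe sets, or 1.66%. The methods' t-test in its unpaired form also called 0 of all probe sets. The median difference over the 6 genes was -0.02 and that over all tested probe sets was -0.03, with 2 of the 6 genes above 0 against 40.2% of all.

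The precision of the comparison differed between genes. For LPL the difference of high minus low IMF was -0.03 (SE 0.29), with a 95% interval of -0.65 to 0.58 on the log2 scale. For CD36 it was 0.10 (SE 0.29), with an interval of -0.50 to 0.70. SLC27A1 gave -0.01 (SE 0.16; interval -0.34 to 0.32), and its second probe set gave -0.06 (SE 0.15; interval -0.37 to 0.25).

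Of the binding proteins and the activating enzyme, FABP3 and ACSL1 had the narrowest intervals and the second FABP5 probe set the widest. FABP3 differed by -0.03 (SE 0.11; interval -0.26 to 0.20). FABP5 differed by -0.04 (SE 0.17; interval -0.40 to 0.32) and its second probe set by -0.20 (SE 0.37; interval -0.97 to 0.56). ACSL1 differed by 0.09 (SE 0.10; interval -0.10 to 0.29), with 6 of the 10 high IMF animals above the low IMF median and 4 below. A doubling or halving thus lies outside the interval of all 8 probe sets.

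Adding title series to the limma model left the differences as they were, since the design is balanced, and narrowed most errors. The standard error of CD36 fell to 0.13, with an interval of -0.16 to 0.36, and that of the second FABP5 probe set to 0.19, with an interval of -0.60 to 0.19. ACSL1 then had an interval of -0.07 to 0.26 and FABP3 one of -0.21 to 0.15. No gene among the 6 passed with limma: the adjusted p-values of the 8 probe sets ran from 0.802 to 0.988, and 0 of all probe sets passed, with 1057 (7.34%) at an unadjusted p of 0.05.

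Within each title series the 6 genes again showed no IMF difference past the limma threshold, where 0% of all probe sets passed in either series. In the S animals LPL differed by 0.19 (SE 0.41), CD36 by 0.17 (SE 0.14), SLC27A1 by -0.16 (SE 0.15), FABP3 by 0.06 (SE 0.13), FABP5 by 0.06 (SE 0.24) and ACSL1 by 0.07 (SE 0.10). The LPL interval in S animals was -0.71 to 1.08, which includes a doubling. Without the pair of arrays of low median signal, high IMF replicates 6 and 9, the S difference of LPL was 0.61. Without high IMF replicate 10 alone it was -0.15, and LPL did not pass in either fit. The S arrays of high albumin signal, replicates 6, 8 and 10, were all of high IMF animals. The S comparison was not run without them. In the other animals LPL differed by -0.26 (SE 0.23), CD36 by 0.02 (SE 0.21), SLC27A1 by 0.14 (SE 0.15), FABP3 by -0.12 (SE 0.12), FABP5 by -0.14 (SE 0.22) and ACSL1 by 0.11 (SE 0.14). At an unadjusted p of 0.05, 0 of the 6 genes passed in either series, against 7.92% of all probe sets in the S series and 3.56% in the other.

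LPL, SLC27A1, FABP3 and FABP5 had differences of opposite sign in the 2 series, but the interaction of IMF content and title series did not pass for any of them. For SLC27A1 the S difference minus the other difference was -0.30 (SE 0.21; limma adjusted p = 0.866), and for LPL it was 0.44 (SE 0.50; limma adjusted p = 0.891). Over all tested probe sets 0% passed for the interaction, and 769 (5.34%) had an unadjusted p under 0.05.

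**Figure D2:**
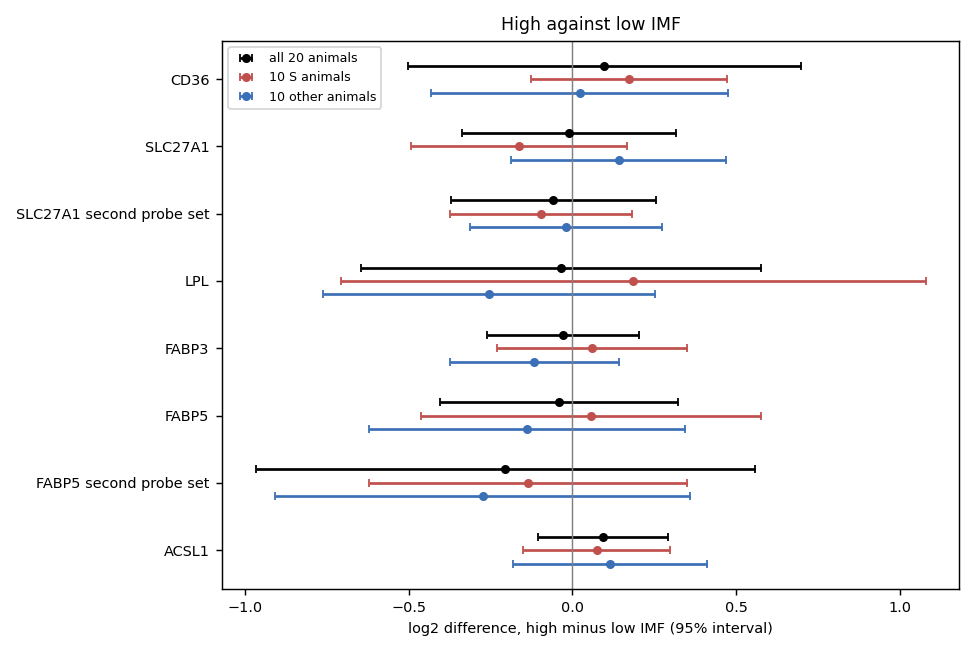
Difference of high minus low IMF on the log2 scale (horizontal axis) for each probe set, with its 95% interval from limma, over all 20 animals (black), the 10 S animals (red) and the 10 other animals (blue). Every interval includes 0; over all 20 animals those of the second FABP5 probe set, LPL and CD36 are the widest.

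The fat cell markers differed by more than the 6 genes between IMF groups, although none passed. The 16 adipocyte markers on the array, of which the brightest are GPD1 and SCD, had a mean log2 level of 8.26 ± 1.07 (SD, n = 10) in high IMF animals and 7.21 ± 0.84 (SD, n = 10) in low IMF animals. Of the 13 that were tested, 11 were higher at high IMF, 6 at an unadjusted p under 0.05 and 0 after adjustment with limma, with a median difference of 1.01. Over all tested probe sets, 40.2% were higher at high IMF and 1.66% had an unadjusted limma p under 0.05 in either direction. The summed intensity of the 16 markers ran from 8917 to 46529 at high IMF and from 9257 to 23972 at low IMF. ADIPOQ and LEP, which define fat cells, were too dim to be tested, and LEP was listed at 0 on 4 arrays while no other marker of the list was at 0 on any. Their part in the results for the 6 genes was not tested.

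Between title series, 4 of the 6 genes passed an adjusted p of 0.05 in limma with IMF content in the model. That is no more than the array as a whole, where 9838 of 14409 probe sets, or 68.3%, passed, 33.4% as higher in S and 34.8% as lower. SLC27A1 and FABP3 were higher in S animals, and CD36 and LPL were lower. The median difference over the 6 genes was 0.0042 and that over all tested probe sets was -0.0025, so the genes are described one by one. Since the meaning of the letter S is not given, differences between the animals and differences in sample or array handling cannot be told apart. Words such as rose and fell describe the signals only.

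CD36 was lower in S animals by a factor of 0.436. Its mean log2 level was 9.73 ± 0.22 (SD, n = 10) in the S series and 10.93 ± 0.35 (SD, n = 10) in the other series, a difference of -1.20 (SE 0.13; limma adjusted p = 7.5e-08). It was the single probe set of the 8 whose series did not overlap, which held for 19.6% of all tested probe sets. LPL was also lower in S animals, with a difference of -0.73 (SE 0.25; limma adjusted p = 0.0144) and 9 of the 10 S animals below the median of the other series. The S animal that was not, high IMF replicate 10, was the highest of all. Without it the difference was -0.90, with a limma adjusted p of 0.00083.

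SLC27A1 rose by 0.50 (SE 0.11; limma adjusted p = 0.00045) in S animals, a factor of 1.41, and its second probe set by 0.54 (SE 0.09; limma adjusted p = 2.2e-05). FABP3 rose by 0.28 (SE 0.09; limma adjusted p = 0.0065), a factor of 1.22. Without the 4 arrays of high albumin signal the FABP3 difference was 0.24 and no longer passed (limma adjusted p = 0.0674). ACSL1 differed by -0.18 (SE 0.08), just outside the threshold with a limma adjusted p of 0.0511, and lay inside it under 8 of 28 other settings.

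FABP5 did not pass with its brighter probe set, at 0.19 (SE 0.17; limma adjusted p = 0.325), and fell with its second one, at -1.45 (SE 0.19; limma adjusted p = 1.2e-06). The mean of both probe sets gave -0.63 with a limma adjusted p of 0.0019. The series difference of FABP5 therefore has no single sign here. The log2 difference of the brighter minus the second probe set within an animal was 2.77 ± 0.30 (SD, n = 10) in the S series, from 2.44 to 3.27, and 1.13 ± 0.41 (SD, n = 10) in the other series, from 0.75 to 2.13. The S and other values did not overlap, and the shift of 1.64 had a permutation p of 1e-05 (two-sided, 100000 resamples), the smallest these resamples can give. The question was raised after the values had been seen. How many other genes with 2 probe sets show such a shift was not looked at. Among single tested probe sets, 19.6% did not overlap between series.

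The SLC27A1 pair showed no such shift. The difference between its probe sets was 2.27 ± 0.23 (SD, n = 10) in the S series and 2.31 ± 0.18 (SD, n = 10) in the other series, with a permutation p of 0.7. Within a series the FABP5 probe sets had Pearson r of 0.70 among S bulls (unadjusted permutation p = 0.0099) and 0.63 among the others (unadjusted permutation p = 0.053), with n = 10 each. For SLC27A1 r was 0.44 (unadjusted permutation p = 0.21) and 0.69 (unadjusted permutation p = 0.027). In the gene order of RefSeq (assembly ARS-UCD2.0) FABP5 is followed by its relatives PMP2, FABP9, FABP4 and FABP12, and whether a FABP5 probe set also reads a relative was not tested.

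**Figure D3:**
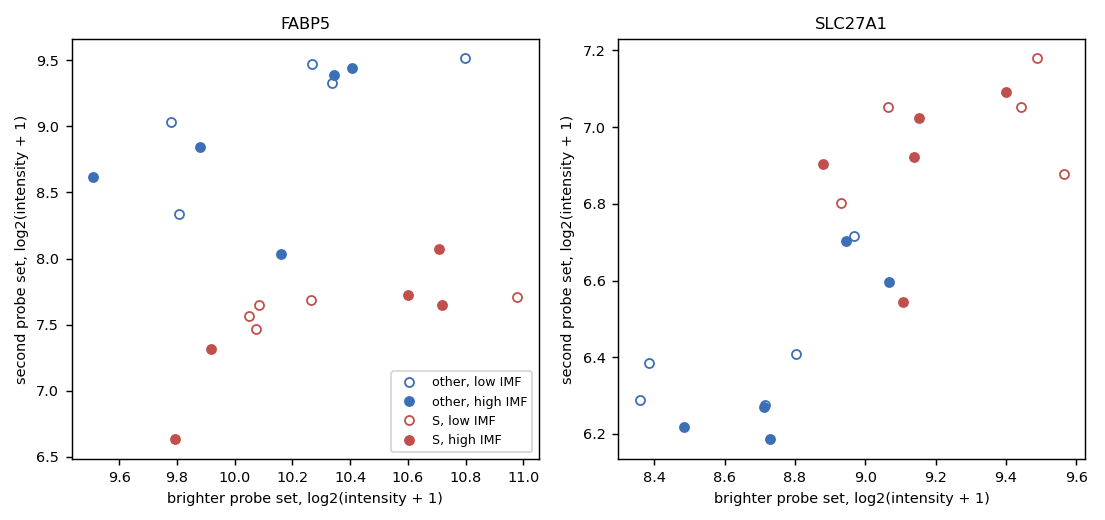
Second probe set against brighter probe set of FABP5 (left) and SLC27A1 (right) in 20 bulls, both axes as log2(intensity + 1); red S series, blue other series, filled points high IMF, open points low IMF. The FABP5 points form 2 bands, with S animals lower on the second probe set at like values of the brighter one, while the SLC27A1 points of both series lie along 1 band.

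Markers of several cell types also differed between title series. All 13 tested adipocyte markers were higher in S animals, with a median difference of 1.45; the level of all 16 was 8.34 ± 1.13 (SD, n = 10) against 7.13 ± 0.62 (SD, n = 10), and the summed intensity ran from 11770 to 46529 in the S series and from 8917 to 17608 in the other. All 5 tested macrophage markers were higher in S animals and 4 of them passed. The level of the 9 on the array was 6.38 ± 0.25 against 5.51 ± 0.56 (SD, n = 10 each). Of the endothelial markers, 5 of 9 tested passed as higher and the other 4 lay below 0 without passing; the brightest, CLDN5 and EMCN, differed by 0.92 and -0.24. Of the slow fibre markers 3 of 8 passed as lower, and of the fast fibre markers 3 of 7 passed as higher and 1 as lower. For the endothelial, slow fibre and fast fibre markers, the share that passed, with both directions counted together, was under the 68.3% of the array as a whole. As higher, 33.4% of the array passed, against 5 of 9 endothelial, 3 of 7 fast fibre and 0 of 8 slow fibre markers. As lower, 34.8% of the array passed, against 0 of 9 endothelial, 1 of 7 fast fibre and 3 of 8 slow fibre markers. The part of these levels, and of the BioB signals that do not overlap between series, in the differences of the 6 genes was not tested.

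The other genes of the pathway were described from fixed lists. Against IMF content 0 of the tested genes of any of these lists passed with limma, where 0% of all probe sets did. Among the partners of lipoprotein lipase, 9 of 16 were on the array and 6 were tested. SEL1L, which helps the enzyme leave the endoplasmic reticulum, differed by -0.08 (SE 0.10) between IMF groups, and VLDLR, a lipoprotein receptor, by 0.05 (SE 0.11). Between title series 2 of the 6 rose and 1 fell, against 68.3% of all probe sets called: LMF1, the maturation factor of the lipase, rose by 1.20 (SE 0.11) in S animals, APOE, a lipoprotein component, rose by 1.60 (SE 0.29), and SEL1L fell by 0.29 (SE 0.07).

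Of 34 further carriers and activating enzymes, 26 were on the array and 19 were tested. FABP4, best known as the binding protein of adipocytes, had the smallest p for IMF content. Its log2 level was 10.52 ± 1.45 (SD, n = 10) at high IMF and 8.87 ± 1.71 (SD, n = 10) at low IMF, a difference of 1.65 (SE 0.65; unadjusted limma p = 0.019, adjusted 0.9997), which did not pass. FABP4 is also 1 of the adipocyte markers. SCARB1, a lipoprotein receptor related to CD36, differed by 0.29 (SE 0.18) and did not pass either.

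Between title series 5 of these 19 rose and 10 fell in S animals, where 33.4% of all probe sets rose and 34.8% fell, and the median was -0.33 against -0.0025 over all probe sets. CAVIN1, a coat protein of caveolae, rose by 0.69 (SE 0.08). SCARB2, the lysosomal member of the CD36 family, fell by 0.41 (SE 0.06), while SCARB1 rose by 0.64 (SE 0.11). The 3 members of the CD36 family measured here thus did not move together, with CD36 and SCARB2 lower and SCARB1 higher in S animals.

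PPAR receptors and their partners switch on many genes of fatty acid uptake. Of 12 listed, 10 were on the array and 9 were tested, since PPARG was too dim. PPARGC1A, a coactivator of oxidative genes, had a log2 level of 6.07 ± 0.65 in the S series and 7.23 ± 0.49 in the other series (SD, n = 10 each), a difference of -1.16 (SE 0.22). RXRB and RXRA, partners of the PPAR receptors, rose by 1.11 (SE 0.09) and 0.61 (SE 0.09). In all 6 of the 9 rose and 1 fell, where 33.4% of all probe sets rose and 34.8% fell. Between IMF groups PPARGC1A differed by -0.43 (SE 0.34) and RXRG by 0.16 (SE 0.16).

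For the step after ACSL1, entry into mitochondria and the thioesterases that undo activation, 10 of 13 genes were on the array and all 10 were tested. Between title series 3 of the 10 rose and 1 fell, under the 68.3% of all probe sets that passed: ACOT7, a thioesterase, rose by 0.87 (SE 0.12) and ACOT13, another, fell by 1.05 (SE 0.09). SLC25A20, the carnitine carrier, differed by 0.13 (SE 0.08) between IMF groups and by 0.09 (SE 0.07) between series. ACACB, whose product holds back mitochondrial entry, differed by -0.15 (SE 0.10) between IMF groups.

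**Figure D4:**
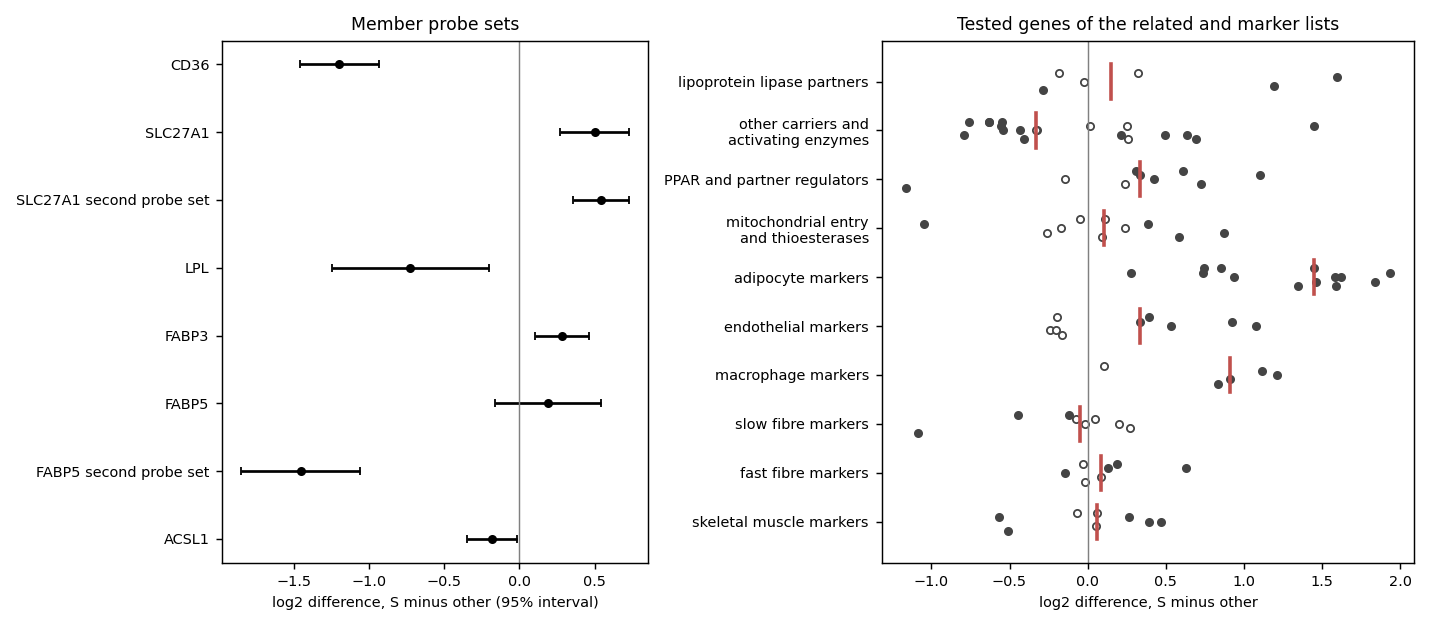
Difference of S minus other title series on the log2 scale (horizontal axes). Left, the 8 probe sets of the 6 genes with 95% intervals from limma; right, every tested gene of the related lists and of the fat cell, blood vessel, macrophage and muscle marker lists (filled points passed an adjusted p of 0.05, open points did not, red bars are list medians). CD36 and the second FABP5 probe set are lowest at the left, and all adipocyte markers lie above 0 at the right.

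Relations between the 6 genes, and between them and the levels of 4 marker lists, were tested with permutations. Over all 20 animals 2 of 39 passed after Benjamini-Hochberg adjustment, CD36 with LPL and CD36 with SLC27A1, but CD36 falls into 2 clusters by title series, so that no pooled r is given. Within the series 0 of 78 relations passed, with 9 of 39 at an unadjusted permutation p under 0.05 in the S animals and 0 of 39 in the other animals.

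The relation with the lowest p was that of SLC27A1 with the slow fibre level in S animals. Pearson r was 0.87 (permutation p = 0.0012, adjusted 0.0936; n = 10) and Spearman rho 0.82 (permutation p = 0.0061), and r was 0.83 without the 2 animals farthest from the median of the slow fibre level. In the other animals r was -0.21. The difference between series was not tested. With arrays centred on their median, r in S animals was 0.74 (permutation p = 0.018, adjusted 0.277). The 2 arrays of lowest median signal, high IMF replicates 6 and 9, had the lowest slow fibre levels of the S series, 12.02 and 12.23.

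CD36 and the adipocyte level in S animals had r of 0.82 (permutation p = 0.0024, adjusted 0.0944; n = 10) and rho of 0.79 (permutation p = 0.0085). The r was 0.68 without the 2 farthest animals and 0.56 without the arrays of high albumin signal. In the other animals r was 0.19. The r of CD36 with the liver marker level was of the same size in S animals, at 0.82 (permutation p = 0.0063, adjusted 0.163; n = 10) with rho of 0.75. CD36 with LPL gave r of 0.68 in S animals, which rested on 2 animals, since r was -0.18 without the 2 farthest, and r of 0.57 in the other animals.

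**Figure D5:**
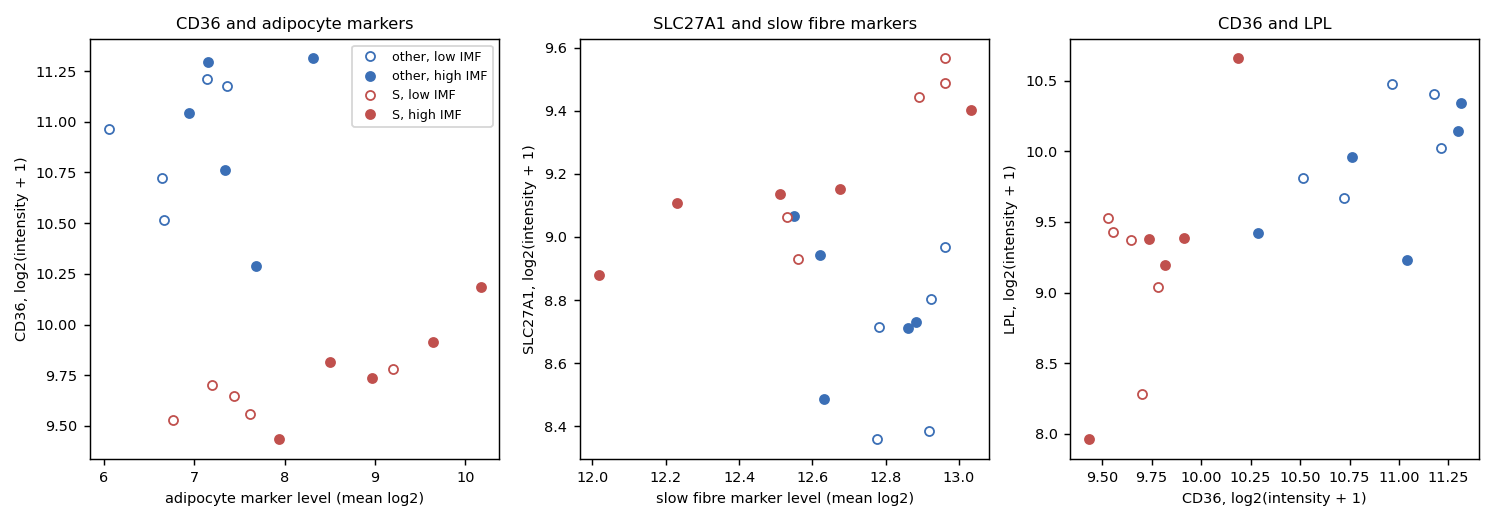
CD36 against the adipocyte marker level, SLC27A1 against the slow fibre marker level (marker levels as the mean log2 value of the list) and LPL against CD36 in 20 bulls, all axes on the log2 scale; red S series, blue other series, filled points high IMF, open points low IMF. The series lie apart on CD36, and the S animals rise with the marker level in the left and middle panels.

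The genes whose values were most alike to each of the 6 were ranked by Pearson r over the 20 animals among 7014 other named genes; r here is a description, and all values share the arrays and the split by title series. For LPL they were PEBP1, PEX7 and RPL7, each with r of 0.83. For CD36 they were TMEM263 (r of 0.95), PPP2R5A (0.95) and FERMT2 (0.94), but in S animals alone FERMT2 had r of 0.10. For SLC27A1 they were NDUFV1 (0.93), a subunit of respiratory complex I, CYC1 (0.92), a subunit of complex III, and VEGFB (0.92), a growth factor of the vascular family. Within the series r was 0.98 in S and 0.69 in other animals for NDUFV1, 0.92 and 0.71 for CYC1, and 0.92 and 0.75 for VEGFB. The genes were picked on these same animals, so the values within a series are no separate check.

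FABP3 was most like COPS9, HERPUD1 and COMMD4, each with r of 0.79. FABP5 was most like COL4A1 (0.81), a collagen of basement membranes, STMN1 (0.74) and IGFBP7 (0.73). In the other animals these reached r of 0.93, 0.95 and 0.97, and in S animals 0.77, 0.76 and 0.32. ACSL1 was most like KLF11 (0.80), a transcription factor, MLYCD (0.74), which breaks down malonyl-CoA, and HADHA (0.71), an enzyme of mitochondrial fatty acid oxidation, with r of 0.56, 0.45 and 0.52 in S animals and 0.80, 0.80 and 0.75 in the other animals.

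After the mean of each title series was subtracted, 2 of the top 3 stayed for FABP5 and for SLC27A1, and 1 of 3 for each of the other 4 genes. SLC27A1 then had NXPH3 (r of 0.90), VEGFB (0.84) and NDUFV1 (0.84) on top, and FABP5 had STMN1 (0.86), COL4A1 (0.84) and CAV1 (0.83), a protein of caveolae. CD36 had COL12A1 (0.73), YBEY (0.72) and TMEM263 (0.72), and ACSL1 had SLC25A34 (0.82), KIF3C (0.75) and KLF11 (0.72).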

How the data were processed

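The values used were linear intensities of 24128 probe sets on 20 arrays, deposited by the authors in 1 table; per the submitters' processing notes GCOS 1.1.1 and Affymetrix Expression Console 1.1 were used. Scaling and summary steps are not given in the sources used here. Of the probe sets, 112 array controls were removed, values were taken as log2(intensity + 1), and the 40% with the lowest mean were left out, leaving 14409. Fits used limma 3.58.1 in R 4.3.3 (lmFit, eBayes, two-sided, Benjamini-Hochberg over all tested probe sets at 0.05); the series text names a paired t-test, but no label pairs the animals, so the fits are unpaired. Relations used numpy 2.4.6 and scipy 1.17.1. The fits were tested on simulated data: of 67 probe sets changed by 0.5 log2 units, 26.9% were recovered for IMF and 58.2% for title series, and of 67 changed by 1 unit, 85.1% and 95.5%, with 0 false calls for IMF and 13 for title series. For IMF with title series in the model there were 9 false calls. The simulated noise was independent between probe sets. The title series run held no series differences beyond the changes put in, so these shares need not hold for the real arrays. Probe sets were named from the platform annotation (13318 with 1 symbol, 86 with several, 10724 with none). The members and gene lists were chosen with earlier results of these data known. Named from each related list were the 2 genes of smallest p for IMF and the 2 for title series; from each marker list shown, its 2 brightest; and for each of the 6 genes, the 3 most alike. The number of arrays limits the precision. Alternatives covered normalization, pseudocount, filter, test, left-out arrays and probe set choice.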

Additional observations from a re-analysis of the deposited data

Results flagged for a closer look

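A single value stood far from the others of its group of 5. With the brighter FABP5 probe set, low IMF replicate 6 of the S series had a log2 value of 10.98 (intensity 2017), and the nearest of the other 4 animals was at 10.26. The gap was 0.771 of the whole range of the group. The second FABP5 probe set of the same animal read 208, also the highest of its group, where the other values ran from 176 to 205. This was looked at in 48 groups of 5 or 10 animals, and chance alone gives about 1 such value in 20 groups.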

How the results depend on the processing

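The calls of the 6 genes between IMF groups did not depend on the processing, since 0 probe sets passed under any setting tried. The signs of several differences near 0 did. For high against low IMF, SLC27A1 was 0.025 after quantile normalization, 0.028 with arrays centred on their median and 0.044 with title series in the model and without the arrays of high albumin signal. LPL was 0.0048 with centred arrays and 0.19 without the 2 arrays of lowest median signal, and FABP3 was 0.012 with centred arrays. The second FABP5 probe set was 0.069 without the albumin arrays and 0.043 without the 2 dim arrays. In both settings the S arrays left out were all of high IMF animals, so IMF content and title series were no longer balanced. Unless title series was in the model, such a difference also holds part of the difference between series. Leaving out 1 animal at a time gave ranges of -0.0057 to 0.20 for CD36, -0.18 to 0.14 for LPL, -0.059 to 0.014 for FABP3, -0.097 to 0.041 for FABP5 and -0.079 to 0.055 for SLC27A1.

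Within the S series and without the 2 dim arrays, the second probe sets of FABP5 and SLC27A1 gave 0.064 and 0.020. Leaving out 1 S animal gave -0.035 to 0.11 for FABP3, -0.035 to 0.23 for FABP5, -0.28 to 0.077 for its second probe set and -0.15 to 0.52 for LPL. In the other series CD36 was -0.011 after quantile normalization, and the second SLC27A1 probe set was 0.000627 after quantile normalization and 0.0018 with centred arrays. Leaving out 1 animal there gave -0.078 to 0.19 for CD36, -0.24 to 0.012 for FABP5 and -0.097 to 0.055 for the second SLC27A1 probe set. The interaction was 0.029 for ACSL1 after quantile normalization and 0.040 for the second SLC27A1 probe set without the 2 dim arrays, and leaving out 1 animal gave -0.13 to 0.060 for ACSL1, -0.012 to 0.25 for CD36, -0.069 to 0.35 for the second FABP5 probe set and -0.15 to 0.013 for the second SLC27A1 probe set.

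Between title series, FABP5 was -0.013 without the albumin arrays and -0.63 as the mean of both probe sets, and FABP3 lost its call without the albumin arrays (0.24). ACSL1 passed with a pseudocount of 16 (limma adjusted p = 0.0461), with the t-test on each probe set (adjusted p = 0.0411) and without the 2 dim arrays (limma adjusted p = 0.0483), and in 5 of the 20 fits that left out 1 animal (high IMF replicates 2, 3 and 9, low IMF replicates 3 and 8; differences from -0.22 to -0.20, limma adjusted p from 0.0134 to 0.0445). CD36, LPL, SLC27A1 and both second probe sets kept their direction and call under all settings run. With centred arrays 4 of 39 pooled relations and 1 of 78 within series passed, the latter CD36 with the adipocyte level in S animals (r of 0.87, adjusted permutation p = 0.0445). Setting aside the 2 dim arrays, taking differences between probe sets and centring on the series were chosen after seeing the data. The causes of these changes were not tested. No paired analysis was possible because the labels pair no animals, and replicate numbers only follow the order of the samples. ADIPOQ, LEP and PPARG fell under the filter on dim signals and were not tested.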
